A study of Homo sapiens with 12 samples.

Results

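Silver nanoparticles (AgNPs) were added to PC3 cells that also received DOC, and what the silver changed was read by comparing cells given AgNPs and DOC together (COM) with cells given DOC alone. PC3 is an established human prostate cancer cell line. Every gene of the deposited table was taken, with the counts of its linear transcripts summed, in 6 of the series' 12 libraries: 3 of COM and 3 of DOC. The other 6 libraries, 3 of cells given PBS (BLANK) and 3 of cells given AgNPs without DOC, supplied the same silver comparison in the absence of DOC. All 12 came from wild-type PC3 cells, so no allele differs between groups, and the labels spell out neither DOC nor any dose, time or batch. Whether replicates were separate cultures is not stated either, so p-values measure the spread between libraries only. Of 43613 genes in the table, 19986 passed a filter on low counts and were tested.

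Cells meet metals and oxidants with several transcription programmes. The zinc sensor MTF1 acts at metal response elements of metallothionein genes, whose proteins bind metal ions through cysteine. NRF2 acts at antioxidant response elements of genes for glutathione, thioredoxin and heme breakdown. Shortage of amino acids or misfolded protein leads to phosphorylation of eIF2 and translation of ATF4, which acts at C/EBP-ATF response elements of amino acid and stress hormone genes.

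Depth differed between the groups compared, with 18603100 to 19421873 counts in DOC libraries and 10996446 to 11069928 in COM libraries. Without DOC it differed likewise, with 22573481 to 22769479 counts in BLANK and 13049868 to 13362290 in AgNPs libraries. Depth was thus lower with silver in both comparisons. A floor of 3 counts was at most 0.161 CPM (counts scaled to library size) in DOC and 0.273 CPM in COM. DOC replicate 1 stood apart from the other DOC libraries: the chi-square per degree of freedom between replicates was 4.48 and 4.81 for pairs that included it, 1.71 for DOC replicates 2 and 3, and 1.45 to 1.64 within COM. BLANK replicate 1, which enters the comparison without DOC, stood apart likewise, at 3.75 and 3.5 against 1.84 for BLANK replicates 2 and 3. The share of circular RNA counts was also higher in DOC replicate 1, at 15.76% against 13.25 and 12.42%. Of the epithelial genes, the keratin gene KRT8 was at 163, 152 and 148 CPM in DOC and 189.9, 176 and 197 CPM in COM. The keratin genes KRT5, KRT14 and KRT17 had at most 3 counts in any library, and CLDN3 and CLDN7 at most 10. Summed over tested members, the epithelial list was at 798 to 849 CPM in DOC and a mesenchymal list at 1535 to 1550 CPM. The leukocyte gene PTPRC had at most 2 counts in any library. Of the fibroblast genes DCN and LUM had at most 1 count in any library, but 7 others of that list were measured and summed to 116 to 131 CPM in DOC and 84.8 to 92.4 CPM in COM, most of it from the collagen gene COL1A2. Of the luminal prostate genes, TMPRSS2 and FOLH1 had 3 counts or fewer in each library, and KLK2 and KLK3 were not analysed here. Summed over 3 tested immune genes the level was 49.3 to 50.4 CPM in DOC and 49.8 to 57.2 CPM in COM, nearly all of it CD68, a lysosomal protein.

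Adding silver to DOC changed 7317 of 19986 genes (36.6%) at an edgeR Benjamini-Hochberg adjusted p below 0.05, the threshold for every gene called changed below. Of these, 3615 were higher (18.1%) and 3702 lower (18.5%). Large changes were mostly rises: 550 genes were at least 2-fold higher (2.75%) and 85 at least 2-fold lower (0.425%). The median size of a change among called genes was 0.33 on the log2 scale. In 9032 genes (45.2%) no COM library overlapped a DOC library. Among 13053 protein-coding genes, 46.4% were called, 2799 higher and 3263 lower, against 19.6% of 3274 long noncoding RNA genes. The share called rose with level, from 9.9% of genes with an average log2 CPM below 0 to 64.5% of those at 6 or more. A share called within a gene list below stands against the 36.6% of all genes and the 46.4% of protein-coding genes. In these bulk libraries, fewer cells of a kind and less RNA per cell cannot be told apart. Without DOC replicate 1, 6959 genes were called, of which 6479 were among the 7317, and with every library thinned to the depth of the shallowest 6723 were called, of which 6460 were.

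**Figure D1:**
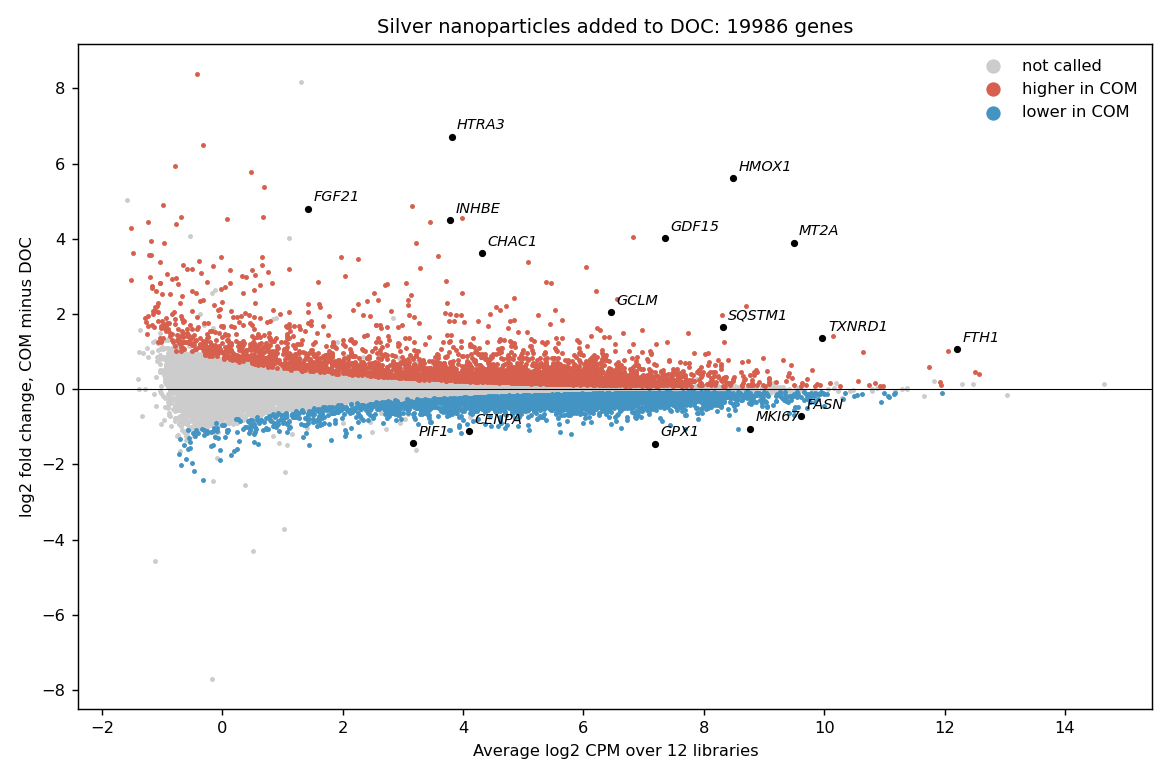
Log2 fold change, COM minus DOC, against average log2 CPM over 12 libraries for the 19986 genes tested. Each point is a gene, red where it was called higher in COM and blue where lower. More genes lie beyond 1 above 0 than beyond 1 below it, and HMOX1 and MT2A combine a high level with a rise above 3.8.

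HTRA3, a secreted serine protease (chromosome 4, 8269754 to 8307098, GRCh38), had the largest rise among the genes ranked for naming. Its level was 0.532, 0.412 and 0.256 CPM in DOC and 42.2, 42.7 and 43.1 CPM in COM, a log2 change of 6.72 ± 0.14 (SE, n = 3 per group, edgeR adjusted p = 1.82e-30). The DOC values rest on 10 counts or fewer in each library. HMOX1, the enzyme that breaks down heme (chromosome 22, 35381096 to 35394207), went from 17.1, 17.3 and 18.2 CPM to 836, 876 and 857 CPM, 48.8-fold higher (log2 5.61 ± 0.04, edgeR adjusted p = 2.06e-45). The 3 libraries of each group lay close together and far from the other group. The next largest rises were of NMRAL2P (4.88 ± 0.15), a pseudogene of a redox sensor, the metabolic hormone FGF21 (4.80 ± 0.25), the inhibin subunit INHBE (4.49 ± 0.14) and the aldo-keto reductase AKR1B10 (4.43 ± 0.14). S100P, a calcium-binding protein, rose by 3.47 ± 0.16.

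Falls were smaller in size. GPX1, the cytosolic glutathione peroxidase, which carries selenium (chromosome 3, 49357176 to 49358353), went from 199, 195 and 193 CPM to 70.0, 72.3 and 72.3 CPM, 2.73-fold lower (log2 -1.45 ± 0.04, edgeR adjusted p = 4.81e-28). Falls of similar size in genes of lower level were those of the sodium channel subunit SCNN1G (-1.49 ± 0.23), the helicase PIF1 (-1.43 ± 0.14) and MYL10, a myosin light chain (-1.35 ± 0.21). GLB1L2 (-1.28 ± 0.27), the transporter SLCO1C1 (-1.26 ± 0.20), STARD8 (-1.252 ± 0.18), the cyclin CCNF (-1.19 ± 0.06), the engulfment gene ELMO3 (-1.17 ± 0.23), the kinase MAP2K6 (-1.16 ± 0.11), the phosphatase CTDSP1 (-1.13 ± 0.06) and the centromeric histone CENPA (-1.11 ± 0.09) completed the 12 largest falls among genes with an average log2 CPM of 1 or more, most counts on RefSeq rows and no overlap between the groups. SLCO1C1 did not pass in limma fits on FPKM (log2 -0.17, adjusted p = 0.19 with a pseudocount of 1).

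**Figure D2:**
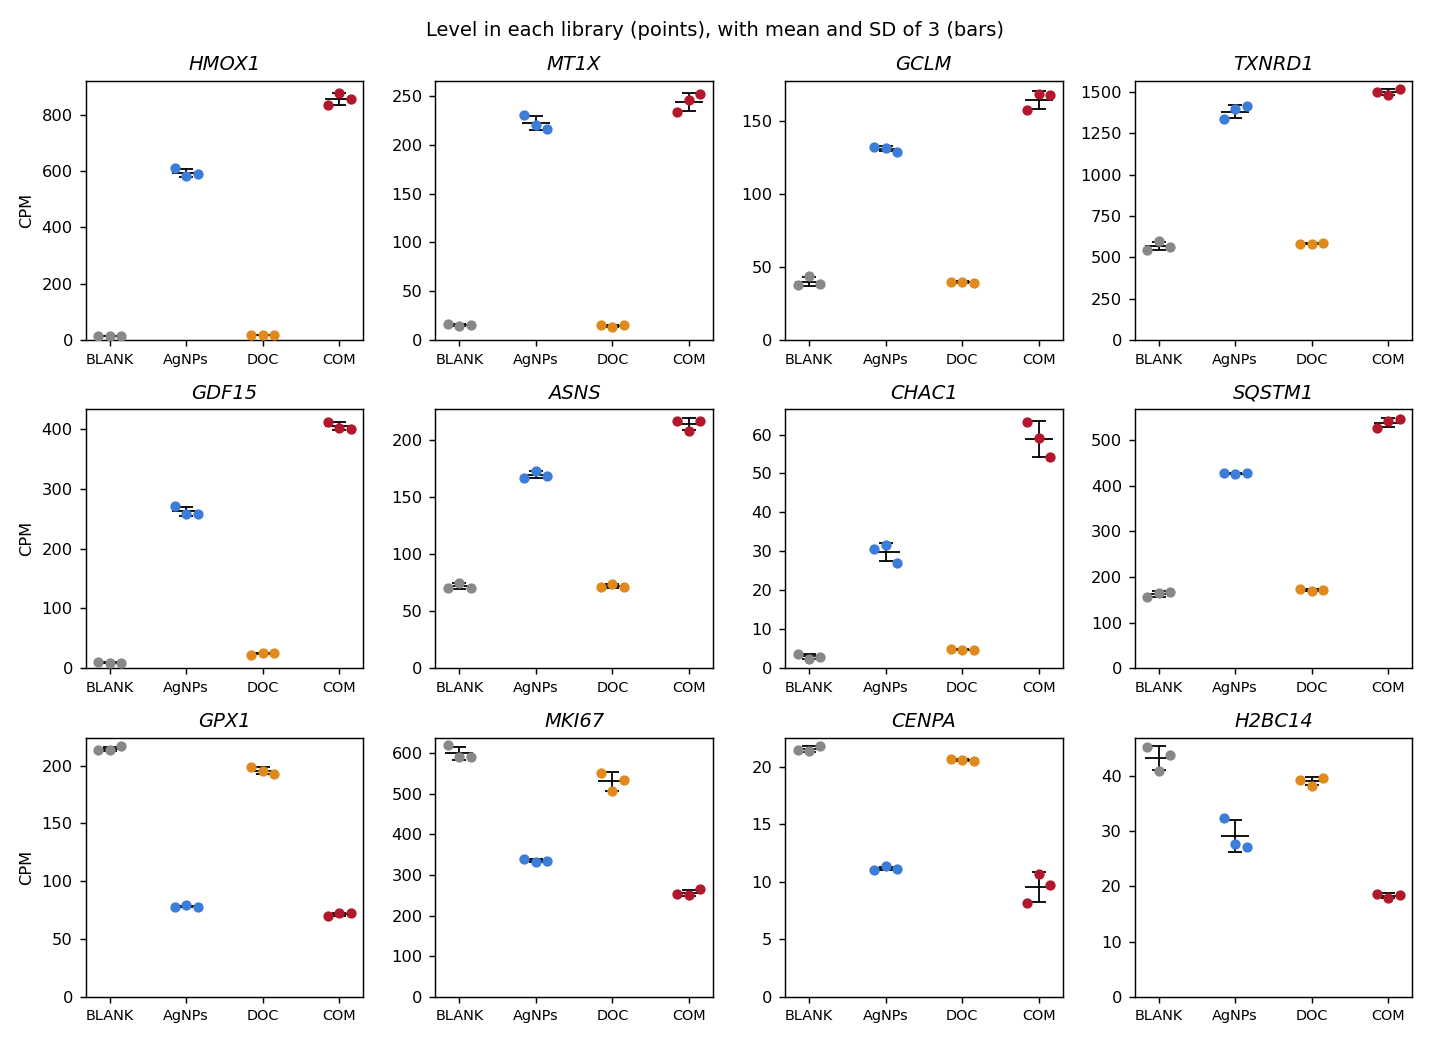
CPM in each of the 12 libraries (points) for 12 genes, with the mean and SD of the 3 libraries of each group as bars. For each gene the 3 COM points lie apart from the 3 DOC points, above them in the top 8 panels and below them for GPX1, MKI67, CENPA and H2BC14.

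Metal-binding and zinc-handling genes were led by MT1X and MT2A, the metallothioneins. Both are uncertain, because near-identical paralogs can share their reads. The 250 bases before the start of each gene are shown, 5′ to 3′ from RefSeq on GRCh38.p14 (forward strand, chr16:56682220-56682469 and chr16:56608334-56608583), because they are crowded with copies of the core metal response element. Capitals mark each match to TGCACNC or TGCGCNC on either strand.
MT1X: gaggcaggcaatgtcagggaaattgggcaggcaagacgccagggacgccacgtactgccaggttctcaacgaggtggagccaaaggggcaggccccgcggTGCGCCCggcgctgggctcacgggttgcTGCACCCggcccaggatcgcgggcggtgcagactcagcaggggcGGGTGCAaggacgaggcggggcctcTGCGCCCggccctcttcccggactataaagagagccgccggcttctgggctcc
MT2A: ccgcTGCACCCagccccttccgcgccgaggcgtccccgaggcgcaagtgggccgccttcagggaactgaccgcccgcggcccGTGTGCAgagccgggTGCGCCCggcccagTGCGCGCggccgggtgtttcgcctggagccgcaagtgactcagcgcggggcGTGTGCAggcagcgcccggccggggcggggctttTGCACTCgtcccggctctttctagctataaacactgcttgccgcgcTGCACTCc
The search found 4 matches for MT1X and 7 for MT2A, where 31.9% of the 12953 promoters of tested genes held at least 1. The share was 66.7% of the 6 promoters of this list, but 24.8% of the 323 of genes at least 2-fold higher. It was 61.3% of the 31 of the respiratory chain list, in which no gene rose, so the motif did not mark the rises. A match is a run of letters and not evidence of binding. MT1X went from 15.1, 13.5 and 15.3 CPM in DOC to 233, 246 and 252 CPM in COM, 16.7-fold higher (log2 4.06 ± 0.05, edgeR adjusted p = 1.22e-36). MT2A went from 90.9, 99.2 and 95.1 to 1340, 1446 and 1462 CPM, 14.9-fold higher (log2 3.90 ± 0.07). Per transcript length, the mean of MT2A went from 258 to 3852 FPKM and that of MT1X from 45.4 to 758 FPKM, so MT2A was the more abundant of the pair in both groups. The zinc exporter SLC30A1 rose 2.995-fold, from 43.7, 46.7 and 42.0 to 134, 126 and 137 CPM. MTF1, the zinc sensor itself, rose by 0.35 ± 0.05 on the log2 scale. SLC39A10, a zinc importer, was the only member to fall, from 61.6, 61.0 and 63.6 to 33.4, 35.5 and 34.5 CPM (log2 -0.85 ± 0.05). Of 6 members tested, 4 rose, 1 fell and the importer SLC39A6 did not pass (0.02 ± 0.06). The list's median was 0.97 on the log2 scale, against 0.00 over all genes tested.

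Heme and iron genes rose with HMOX1. Ferritin, the iron store, is built from FTH1 and FTL, and both are uncertain because of processed pseudogenes. FTH1 went from 3200, 3304 and 3241 to 6805, 6895 and 6758 CPM (log2 1.07 ± 0.02), and FTL rose by 1.40 ± 0.04. In FPKM the FTH1 mean went from 2846 to 5946 and the FTL mean from 864 to 2283. The heme importer SLC48A1 rose 2.36-fold, the biliverdin reductase BLVRB by 1.10 ± 0.07 on the log2 scale, and FECH, which makes heme, 1.98-fold from 44.7, 44.0 and 43.3 to 85.5, 90.8 and 85.4 CPM. PIR, an iron-binding nuclear protein, and the porphyrin transporter ABCB6 rose by 0.94 ± 0.08 and 0.44 ± 0.08. HMOX2, the constitutive heme oxygenase, fell (-0.27 ± 0.06), opposite to HMOX1. The transferrin receptor TFRC (-0.01 ± 0.03) and the ferritin receptor NCOA4 (0.07 ± 0.03) did not pass. In all, 8 of 13 members rose, 1 fell and 4 did not pass (69.2% called), with a median of 0.94.

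Glutathione genes rose at the steps of cystine uptake and synthesis. GCLM, the regulatory subunit of the enzyme that starts glutathione synthesis, went from 39.9, 39.9 and 39.0 CPM to 158, 169 and 167 CPM, 4.15-fold higher (log2 2.05 ± 0.05, edgeR adjusted p = 2.07e-29), with no overlap. Its promoter (reverse strand, chr1:93909431-93909680) and that of TXNRD1, the cytosolic thioredoxin reductase (forward strand, chr12:104215529-104215778), each hold a single core antioxidant response element, TGACNNNGC on either strand, in capitals. TXNRD1 has 2 promoters in the RefSeq table, of which 1 is shown.
GCLM: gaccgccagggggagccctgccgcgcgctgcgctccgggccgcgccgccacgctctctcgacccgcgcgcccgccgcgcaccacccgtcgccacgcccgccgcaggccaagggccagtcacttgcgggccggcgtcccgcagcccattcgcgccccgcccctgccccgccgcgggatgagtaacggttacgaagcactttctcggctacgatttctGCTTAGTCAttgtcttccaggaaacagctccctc
TXNRD1: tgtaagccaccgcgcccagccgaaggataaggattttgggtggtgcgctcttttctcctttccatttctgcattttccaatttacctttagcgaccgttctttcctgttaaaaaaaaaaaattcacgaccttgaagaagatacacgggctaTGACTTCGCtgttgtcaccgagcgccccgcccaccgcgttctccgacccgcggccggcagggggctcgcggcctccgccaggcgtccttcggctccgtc
The matches begin 34 bases before the start of GCLM and 99 before that of TXNRD1, and 12% of all promoters held this motif, against 42.9% of the 14 promoters of the glutathione list, 13.3% of the 15 of the thioredoxin list and 12.5% of the 16 of the NRF2 reductase list. TXNRD1 went from 579, 583 and 584 to 1503, 1483 and 1517 CPM (log2 1.37 ± 0.03). The cystine importer SLC7A11 went from 126, 144 and 142 to 547, 531 and 547 CPM, 3.95-fold higher, and its partner chain SLC3A2 rose 1.90-fold. The catalytic subunit GCLC rose by 1.01 ± 0.04, glutathione reductase GSR by 0.63 ± 0.04 and the synthetase GSS by 0.28 ± 0.06. CHAC1, which degrades glutathione, rose more than any of these, from 4.85, 4.68 and 4.81 to 63.2, 59.1 and 54.2 CPM (12.3-fold). The exporters ABCC3 (1.36 ± 0.05) and ABCC2 (1.32 ± 0.16) rose, while the exporter ABCC4 (-0.35 ± 0.05) and GGCT, a cyclotransferase of the same degradation route as CHAC1 (-0.37 ± 0.06), fell. The count was 14 of 21 higher, 2 lower and 5 not passing (76.2% called), with a median of 0.52.

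Thioredoxin genes did not share a direction. SESN2, a sestrin that also restrains mTORC1, went from 17.1, 15.9 and 19.3 to 163, 170.0 and 167 CPM (9.53-fold), and the sulfiredoxin SRXN1, which restores oxidised peroxiredoxins, from 60.6, 60.1 and 54.4 to 160.2, 168 and 167 CPM (2.83-fold). PRDX1 (0.43 ± 0.04), TXN (0.35 ± 0.04) and TXNIP, the inhibitor of thioredoxin (0.32 ± 0.04), rose less. Mitochondrial PRDX3 (-0.26 ± 0.04) and endoplasmic reticulum PRDX4 (-0.37 ± 0.05) fell, and the mitochondrial reductase TXNRD2 (-0.02 ± 0.08) did not pass. Rises numbered 8 of 19 and falls 2, and 9 did not pass (52.6% called), with a median of 0.07.

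Reductases and detoxifying enzymes under NRF2 rose almost throughout, with 20 of 21 higher, 1 lower and a median of 1.19, where 18.1% of all genes were called higher. CYP4F11, a fatty acid hydroxylase, was at 0.160, 0.0514 and 0 CPM in DOC and 3.79, 3.45 and 5.38 CPM in COM. The first of these rest on 3, 1 and 0 counts, so no fold is given. AKR1B10 went from 1.86, 1.08 and 0.972 to 28.2, 28.9 and 27.6 CPM and AKR1C1 from 1.97, 1.70 and 1.48 to 25.7, 24.0 and 26.4 CPM, AKR1C1 being uncertain because of its paralogs. OSGIN1, an oxidative stress growth inhibitor, rose 10.4-fold, from 8.36, 7.87 and 9.41 to 90.7, 88.8 and 88.5 CPM. ALDH3A1, an aldehyde dehydrogenase, went from 150.5, 147 and 151 to 689.7, 698 and 698 CPM (4.65-fold), and the quinone reductase NQO1 from 206, 191 and 197 to 480.5, 468 and 465 CPM (2.38-fold). TRIM16L rose 7.05-fold and is uncertain because of TRIM16. The superoxide dismutases were near their DOC level, with SOD1 at 0.13 ± 0.04 (higher) and mitochondrial SOD2 at -0.20 ± 0.04, the only member to fall. Without COM replicate 2, 18 of the members were called higher.

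The genes that make NADPH, which feeds these reductases, rose less. PGD, of the pentose phosphate pathway, went from 98.2, 97.8 and 96.8 to 189.5, 190.2 and 188 CPM (1.94-fold). MTHFD2 rose 1.72-fold and the malic enzyme ME1 1.59-fold. RPIA (-0.71 ± 0.10), MTHFD1 (-0.31 ± 0.03) and RPE (-0.14 ± 0.05) fell, so 8 of 13 rose, 3 fell and 2 did not pass. RPIA and RPE isomerise pentose phosphates and do not make NADPH. Among the regulators, NFE2L2, the gene of NRF2, rose 1.60-fold from 79.1, 79.1 and 77.7 to 125, 124 and 127 CPM, its partners MAFF and MAFG 3.06-fold and 2.28-fold, and the related factor NFE2L1 1.61-fold. The repressors BACH1 (0.46 ± 0.04) and KEAP1 (0.21 ± 0.05) also rose. Of 12 regulators, 7 rose and 5 did not pass (58.3% called).

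Selenoproteins did not move together: 5 of 23 rose, 6 fell and 12 did not pass, with a median of -0.02. That was 47.8% called, near the 46.4% of protein-coding genes. GPX2, a glutathione peroxidase of epithelia, had no count in any DOC library and was at 2.35, 2.99 and 2.19 CPM in COM, at least 15.6-fold higher against the largest DOC floor of 3 counts per library. TXNRD1 rose as above, and SEPHS2, which makes the selenium donor, rose 1.65-fold. GPX1 fell as above, and so did SELENOH (-0.95 ± 0.12), SELENOW (-0.68 ± 0.07) and GPX4, which protects membrane lipids (-0.24 ± 0.04). In FPKM the mean of GPX1 went from 183 to 66.2 and that of GPX4 from 124 to 105, so the order of the pair was reversed between DOC and COM.

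The ATF4 pathway rose at its transcription factors and feedback genes. ATF3 went from 15.7, 15.9 and 15.2 to 108, 115 and 112 CPM (7.14-fold, log2 2.84 ± 0.05, edgeR adjusted p = 2.85e-31), PPP1R15A, which returns eIF2 to its active state, from 37.4, 41.9 and 36.5 to 195, 210.5 and 207 CPM (5.29-fold), and CEBPB from 21.7, 18.5 and 19.5 to 84.3, 84.8 and 87.3 CPM (4.29-fold). DDIT3, the factor CHOP, rose 3.96-fold and TRIB3, a pseudokinase that restrains ATF4, 3.10-fold. The AP-1 repressor JDP2 (2.84 ± 0.21), the stress chromatin protein NUPR1 (2.11 ± 0.07) and ATF4 itself (0.96 ± 0.03) also rose. Of the kinases that phosphorylate eIF2, EIF2AK4 fell slightly (-0.14 ± 0.04), and EIF2AK1 (-0.01 ± 0.04), EIF2AK2 (0.02 ± 0.04) and EIF2AK3 (0.17 ± 0.09) did not pass. The eIF2 subunit EIF2S1 (-0.24 ± 0.03) and the exchange factor subunit EIF2B1 (-0.22 ± 0.06) fell. In all 15 of 21 rose, 3 fell and 3 did not pass, with a median of 0.58.

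Secreted stress hormones had the highest median of all lists, 1.71, with 9 of 11 higher and 2 not passing. GDF15, a cytokine that curbs appetite, went from 23.1, 25.8 and 25.6 to 412, 402 and 399.8 CPM (16.3-fold, log2 4.02 ± 0.04, edgeR adjusted p = 6.76e-40). FGF21 went from 0.266, 0.309 and 0.307 to 8.77, 6.80 and 9.67 CPM and INHBE from 1.28, 2.06 and 1.53 to 35.6, 36.8 and 37.8 CPM, so both were nearly silent under DOC. STC2, a glycoprotein of calcium balance, rose 2.79-fold, the angiogenic factor VEGFA 2.62-fold and the lipase inhibitor ANGPTL4 3.92-fold. The EGF receptor ligands separated, with HBEGF higher (1.44 ± 0.10) and EREG (0.17 ± 0.22) and AREG (-0.18 ± 0.09) not passing. Among mTORC1 inhibitors, DDIT4 went from 29.4, 29.6 and 30.4 to 185, 182 and 184 CPM (6.16-fold) and stood with SESN2 far above the other members, of which SESN3 rose 1.41-fold. The list held 7 rises and 2 falls among 13, with 4 not passing, and had 4 rises in limma on log2(FPKM + 1).

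Amino acid genes rose at synthesis, transport and tRNA charging. The promoters of ASNS, asparagine synthetase (reverse strand, chr7:97872409-97872658, 1 of 2 in the table), and CHAC1 (forward strand, chr15:40953221-40953470) show the C/EBP-ATF response element, TGATGNAA on either strand, in capitals.
ASNS: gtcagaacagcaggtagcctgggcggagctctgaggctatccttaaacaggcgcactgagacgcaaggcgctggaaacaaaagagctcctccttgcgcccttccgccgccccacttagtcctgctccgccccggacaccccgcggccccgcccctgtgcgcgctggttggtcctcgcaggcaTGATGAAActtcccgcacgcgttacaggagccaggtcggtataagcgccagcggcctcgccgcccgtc
CHAC1: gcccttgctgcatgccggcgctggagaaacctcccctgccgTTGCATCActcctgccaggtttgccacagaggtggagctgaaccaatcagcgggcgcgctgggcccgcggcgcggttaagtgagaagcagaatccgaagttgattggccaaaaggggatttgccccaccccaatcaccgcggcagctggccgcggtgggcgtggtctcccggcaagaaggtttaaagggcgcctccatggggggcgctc
The matches begin 68 and 209 bases before the start. Over all promoters 1.8% held this motif, and among the 12 promoters of the amino acid synthesis list 33.3%. It stood in 11.8% of the 17 of the ATF4 list, 12.5% of the 16 of the tRNA synthetases and 0 of the 13 of the amino acid transporters. ASNS went from 71.5, 73.9 and 71.0 to 217, 208 and 217 CPM (2.97-fold, log2 1.57 ± 0.04). The serine pathway genes PHGDH and PSAT1 rose 1.64-fold and 1.66-fold, the transaminase GPT2 1.69-fold, and CTH, which makes cysteine, by 1.76 ± 0.10. PYCR3 (-0.65 ± 0.06) and ALDH18A1 (-0.33 ± 0.04), both of proline synthesis, fell, as did SHMT1 (-0.24 ± 0.07) and BCAT1 (-0.27 ± 0.05). The count was 13 of 20 higher, 4 lower and 3 not passing.

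Of the amino acid transporters, SLC1A4, which carries alanine and serine, went from 10.49, 10.96 and 10.1 to 42.0, 42.4 and 41.7 CPM (3.99-fold) and the glutamine carrier SLC38A2 from 498, 534 and 538 to 902, 901 and 909 CPM (1.73-fold). SLC7A8 (-0.47 ± 0.06), SLC7A2 (-0.51 ± 0.06) and SLC7A6 (-0.17 ± 0.04) fell, which left 10 of 15 higher and 2 not passing. Among cytosolic aminoacyl-tRNA synthetases 12 of 20 rose, 5 fell and 3 did not pass. GARS1 rose 1.71-fold, SARS1 1.67-fold, WARS1 1.59-fold and AARS1 1.53-fold. VARS1 (-0.36 ± 0.03), FARSA (-0.27 ± 0.03), KARS1 (-0.27 ± 0.03), QARS1 (-0.25 ± 0.04) and FARSB (-0.19 ± 0.04) fell, so the enzymes of different amino acids moved in opposite directions.

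**Figure D3:**
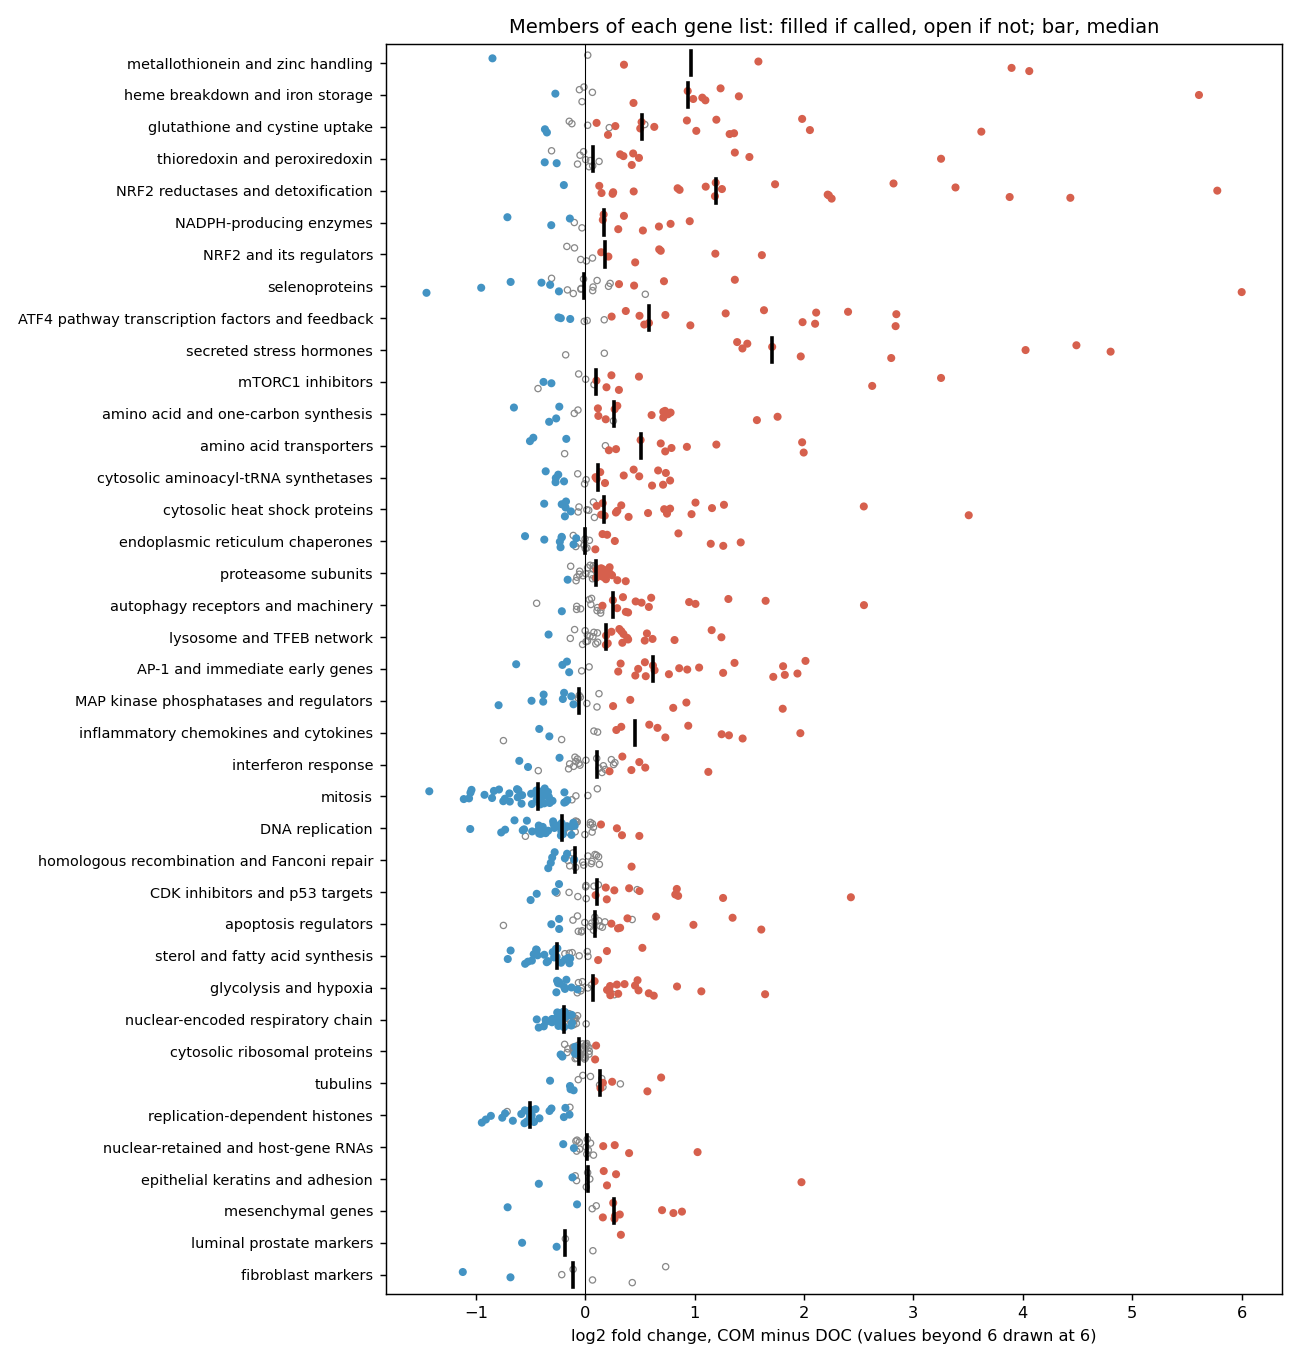
Log2 fold change, COM minus DOC, of each tested member of 39 gene lists (points; filled red or blue where called higher or lower, open where not called), with the list's median as a bar. Stress hormones and NRF2 reductases have medians above 1, mitosis and histone genes have almost no point above 0, and the selenoprotein point drawn at 6 is GPX2, a fitted value with no count in DOC.

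Heat shock genes rose in part, in a list that held mitochondrial chaperones beside cytosolic ones. The inducible chaperone gene HSPA6 went from 2.40, 1.44 and 1.74 to 12.5, 9.71 and 10.4 CPM (5.84-fold), DNAJB1, a partner of HSP70, from 168, 174 and 176 to 331, 349.6 and 335 CPM (1.96-fold), and HSPA1A, uncertain because of HSPA1B, from 321, 275 and 286 to 491, 478 and 483 CPM (1.65-fold). HSPB8 rose 2.41-fold and the small chaperone CRYAB by 3.51 ± 0.30. HSP90AA1 (0.03 ± 0.02) and HSP90AB1 (0.01 ± 0.02) did not pass, and HSF1, the heat shock factor (-0.13 ± 0.03), and the mitochondrial chaperones HSPD1 (-0.21 ± 0.03) and HSPE1 (-0.38 ± 0.04) fell. The count was 18 of 30 higher, 6 lower and 6 not passing (80.0% called), and without DOC replicate 1 it was 21 higher. Of the 27 promoters of this list, 18.5% held a heat shock element (GAA, TTC and GAA in turn, with 2 bases between neighbours, on either strand) against 0.4% of all promoters. The promoter of HSPA6 held 1 match, and those of DNAJB1, HSPA1A and HSPB8, which also rose, held 0.

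Endoplasmic reticulum genes had no common direction, with 8 of 24 higher, 8 lower and 8 not passing (66.7% called). HERPUD1, which takes part in degradation of misfolded proteins, went from 44.4, 44.5 and 44.9 to 118, 119 and 121 CPM (2.68-fold). The stress sensor ERN1 rose 2.21-fold, the transcription factor XBP1 1.80-fold and DNAJB9, a chaperone, 2.40-fold. The lumenal chaperones HSPA5 (0.27 ± 0.03), HSP90B1 (-0.23 ± 0.03) and PDIA4 (-0.21 ± 0.03) moved little, the first up and the others down. Proteasome subunits rose slightly: 17 of 33 were higher, 1 lower and 15 not passing (54.5% called), led by ADRM1 (1.29-fold) and PSMA1 (1.23-fold), and 11 were higher with no filter on low counts.

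Of 27 autophagy genes 15 were higher, 1 lower and 11 not passing (59.3% called, against 36.6% of all genes). SQSTM1, the receptor p62, went from 174, 169 and 171 to 527, 541 and 545 CPM (3.13-fold), GABARAPL1, which coats autophagosomes, from 5.91, 7.30 and 6.96 to 40.3, 38.02 and 39.9 CPM (5.85-fold), the starting kinase ULK1 2.48-fold and MAP1LC3B 2.01-fold. ATG16L1 (-0.21 ± 0.05) was the member that fell, and BECN1 (0.11 ± 0.06), ATG5 (-0.08 ± 0.06) and ATG7 (-0.04 ± 0.04) did not pass. Among 30 lysosome genes there were 16 rises, 1 fall and 13 that failed the test (56.7% called). The hydrolase GLA rose 2.37-fold, the transcription factor TFE3 2.23-fold, the cholesterol exporter NPC1 1.48-fold and the protease CTSD 1.46-fold, while TFEB (-0.10 ± 0.20) did not pass and MITF (-0.34 ± 0.08) fell.

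Immediate early genes rose in 19 of 25 cases, with 4 lower and 2 not passing and a median of 0.62. FOS went from 3.41, 3.14 and 4.50 to 15.1, 12.7 and 14.7 CPM (3.84-fold), JUNB from 70.9, 67.1 and 71.0 to 129.5, 126 and 124 CPM (1.81-fold), JUND 2.06-fold, and the mRNA decay factor ZFP36 4.04-fold. EGR1 was low throughout, at 0.266, 0.360 and 0.102 CPM in DOC and 0.723, 0.817 and 1.09 CPM in COM. MYC went the other way, from 795, 773 and 778 to 499, 514 and 502 CPM (1.55-fold lower, log2 -0.63 ± 0.03), as did KLF6 (-0.21 ± 0.06), SRF (-0.17 ± 0.06) and FOSL1 (-0.15 ± 0.04). The AP-1 motif TGANTCA stood in 10.8% of the 323 promoters of genes at least 2-fold higher, against 4.6% of all promoters, and in 0 of the 18 promoters of the immediate early list itself. In limma on genes with a mean FPKM of at least 1, which tests fewer genes, 14 members rose.

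Among MAP kinase regulators DUSP1, a phosphatase of stress-activated kinases, went from 16.8, 17.0 and 14.5 to 55.5, 55.3 and 58.1 CPM (3.49-fold) and DUSP5 rose 1.90-fold, while DUSP6 and DUSP7, which act on ERK, were 1.30-fold and 1.41-fold lower. Of these 19 regulators 5 were higher, 8 lower and 6 not passing (68.4% called). Inflammatory genes rose in 10 of 16 cases, fell in 2 and did not pass in 4 (75.0% called). The chemokine CXCL8 went from 9.11, 9.05 and 7.88 to 36.1, 32.6 and 33.0 CPM (3.91-fold). CXCL2, uncertain because RefSeq rows hold only 21% of its counts, rose 2.48-fold, whereas CXCL1 fell (-0.33 ± 0.05). NFKB2 rose 1.58-fold and NFKB1 was 1.34-fold lower. Of 27 interferon response genes 6 were higher, 3 lower and 18 not passing. So 33.3% were called, near the 36.6% of all genes and below the 46.4% of protein-coding genes. ISG15 was 1.52-fold lower and IFIT1 1.44-fold lower, while STAT2 rose 1.26-fold.

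Genes of mitosis fell in 42 of 46 cases, with none higher and 4 not passing (TTK, 0.11, KIF18A, 0.02, KIF14, -0.09, and CDC25C, -0.12), and a median of -0.43, where 18.5% of all genes were called lower. The promoters of CENPA (forward strand, chr2:26785806-26786055) and CCNF (forward strand, chr16:2429197-2429446) show the cell cycle homology region, TTTGAA on either strand, in capitals.
CENPA: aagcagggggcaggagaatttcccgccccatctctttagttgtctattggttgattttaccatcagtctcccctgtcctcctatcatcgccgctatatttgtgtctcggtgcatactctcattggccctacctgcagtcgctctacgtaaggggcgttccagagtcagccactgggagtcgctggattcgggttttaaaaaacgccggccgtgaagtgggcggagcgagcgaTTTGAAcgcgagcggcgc
CCNF: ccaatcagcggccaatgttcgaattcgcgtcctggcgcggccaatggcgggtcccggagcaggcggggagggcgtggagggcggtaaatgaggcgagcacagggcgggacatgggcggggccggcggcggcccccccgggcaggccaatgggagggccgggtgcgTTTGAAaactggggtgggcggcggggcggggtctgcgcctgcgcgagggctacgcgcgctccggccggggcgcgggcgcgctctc
The matches begin 18 and 85 bases before the start. This motif stood in 53.8% of the 39 promoters of the mitosis list and 31.7% of the 41 of genes at least 2-fold lower, against 9.5% of all promoters and 2.6% of the 39 of the DNA replication list. MKI67, a protein of cycling cells, went from 551, 506 and 534 to 253, 251 and 265 CPM (2.07-fold lower, log2 -1.05 ± 0.03, edgeR adjusted p = 4.04e-25). CENPF, a kinetochore protein, went from 490.1, 434 and 451 to 224, 213 and 222 CPM (2.09-fold lower), the kinase PLK1 from 188, 196 and 202 to 104, 108 and 116 CPM (1.78-fold lower), and TOP2A from 291, 282 and 281 to 164, 163 and 168 CPM (1.73-fold lower). CENPA itself went from 20.7, 20.6 and 20.5 to 8.13, 10.7 and 9.76 CPM (2.16-fold lower). Without DOC replicate 1, and at thinned depth, 42 members were likewise lower.

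DNA replication genes fell in 30 of 47 cases, rose in 4 and did not pass in 13, with a median of -0.22. The replicative helicase subunit MCM7 went from 247, 255 and 249.9 to 126, 120.0 and 116 CPM (2.07-fold lower) and MCM5 from 106, 96.4 and 96.3 to 60.8, 59.3 and 59.3 CPM (1.66-fold lower). UHRF1, which maintains DNA methylation, was 1.56-fold lower. The 4 that rose were the cyclin CCNE2 (0.49 ± 0.07), the licensing factor CDC6 (0.34 ± 0.05), ORC6 (0.29 ± 0.06) and RFC1 (0.14 ± 0.04). In homologous recombination and Fanconi repair 1 of 22 rose, 7 fell and 14 did not pass. The share called was 36.4%, near the 36.6% of all genes and below the 46.4% of protein-coding genes. BRCA1 was 1.34-fold higher, and its partner BARD1 1.26-fold lower. Among CDK inhibitors CDKN1A, which codes for p21, went from 11.1, 14.5 and 14.02 to 70.5, 72.9 and 69.9 CPM (5.38-fold), CDKN2B was 1.77-fold higher and CDKN2C 1.36-fold lower, and the unusual cyclin CCNG2 was 2.40-fold higher. Of these and other p53 targets 11 of 24 rose, 4 fell and 9 did not pass. That was 62.5% called, against 36.6% of all genes and 46.4% of protein-coding genes. The p53 regulator MDM2 rose by 0.27 ± 0.04. PC3 is a p53-null line, and what acted on these genes was not tested. Of 28 apoptosis regulators 8 were higher, 3 lower and 17 not passing. So 39.3% were called, near the 36.6% of all genes and below the 46.4% of protein-coding genes. PMAIP1, which codes for NOXA, rose 2.54-fold and the death receptor TNFRSF10B 1.57-fold, both promoters of cell death, and the survival protein MCL1 rose 1.31-fold. BBC3, which codes for PUMA, went from 1.28, 1.54 and 1.94 to 5.51, 5.35 and 3.74 CPM, but did not pass on RefSeq rows alone (log2 1.499, adjusted p = 0.151).

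Replication-dependent histone genes, which are transcribed in S phase, fell in 25 of 27 cases with a median of -0.51, and H3C12 (-0.71 ± 0.33) and H4C8 (-0.14 ± 0.06) did not pass. Close copies can share their reads, so single histone genes are uncertain. The promoter of H2BC14 (forward strand, chr6:27814772-27815021) is shown for its 5 copies of the CCAAT box, in capitals as CCAAT or, on the other strand, ATTGG.
H2BC14: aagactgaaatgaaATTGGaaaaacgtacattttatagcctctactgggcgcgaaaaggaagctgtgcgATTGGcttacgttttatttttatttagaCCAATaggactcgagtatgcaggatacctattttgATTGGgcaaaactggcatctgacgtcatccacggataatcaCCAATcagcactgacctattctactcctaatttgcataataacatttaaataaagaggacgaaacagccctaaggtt
The CCAAT box stood in 88.0% of the 25 histone promoters and 76.9% of the 39 of mitosis genes, against 34.6% of all promoters. It was not particular to lists that fell. It stood in 82.6% of the 23 promoters of endoplasmic reticulum genes and 58.3% of the 12 of amino acid synthesis genes. Among genes at least 2-fold lower and at least 2-fold higher the shares were 43.9% and 38.1%. H2BC14, which is outside the list of 27, went from 39.2, 38.2 and 39.6 to 18.6, 17.9 and 18.5 CPM (2.13-fold lower, log2 -1.09 ± 0.07). H2AC4 went from 67.1, 62.0 and 61.3 to 32.6, 32.0 and 36.8 CPM (1.88-fold lower) and H3C4 from 185, 179 and 177 to 123, 125 and 122 CPM (1.47-fold lower). The linker histone genes H1-2 (-0.56 ± 0.07), H1-3 (-0.95 ± 0.14) and H1-4 (-0.47 ± 0.11) fell as well. Summed over the list the level was 3319, 2961 and 2943 CPM in DOC replicates 1 to 3 and 2178, 2218 and 2191 CPM in COM, highest in DOC replicate 1. Without that library 25 members were still lower.

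Sterol and fatty acid synthesis genes fell in 22 of 31 cases, rose in 3 and did not pass in 6, with a median of -0.26. Fatty acid synthase FASN went from 879, 864 and 856 to 531, 534 and 526 CPM (1.63-fold lower, log2 -0.71 ± 0.03), the desaturase SCD from 399.7, 420.4 and 411 to 251, 258 and 258 CPM (1.60-fold lower) and the carboxylase ACACA from 158, 166 and 164 to 111, 113 and 109 CPM (1.46-fold lower). DHCR7, of the last steps to cholesterol, was 1.44-fold lower, and the regulators SREBF1 (-0.45 ± 0.05) and SREBF2 (-0.27 ± 0.04) fell. TM7SF2 (0.52 ± 0.20), SC5D (0.20 ± 0.08) and FADS1 (0.12 ± 0.03) were the 3 that rose, and without DOC replicate 1 1 member was called higher and 20 lower, and with no filter 0 were higher. Nuclear genes of the respiratory chain fell in 27 of 40 cases with none higher, by little each (median -0.19). CYC1 was 1.24-fold lower, CYCS 1.28-fold and ATP5F1A 1.34-fold.

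Glycolysis and hypoxia genes moved both ways, with 16 of 34 higher, 10 lower and 8 not passing (76.5% called). The hypoxia-responsive gene NDRG1 went from 423, 442 and 423 to 759, 773 and 771 CPM (1.79-fold), the oxygen sensor EGLN3 rose 2.09-fold, the mitophagy receptor BNIP3L 1.496-fold and the glucose carrier SLC2A1 1.39-fold. The lactate exporter SLC16A3 (-0.26 ± 0.04), LDHA (-0.13 ± 0.02), HIF1A (-0.19 ± 0.03) and CA9 (-0.26 ± 0.06) fell. Cytosolic ribosomal protein genes were almost still, with 34 of 40 not passing, 2 higher (RPL10, 0.09 ± 0.03, and RPS4X, 0.10 ± 0.03) and 4 lower, among them RPL22 (1.16-fold lower) and RPL35 (1.17-fold lower). RPL10 did not pass without COM replicate 2 (log2 0.07, adjusted p = 0.0608). Without DOC replicate 1, in which these genes summed to 24371 CPM against 21911 and 21939 CPM in the other DOC libraries, 6 were higher and 4 lower, and with no filter on low counts 0 were higher. The number lower was 2 to 16 over the alternative settings. Tubulins, the targets of microtubule drugs, were 5 higher, 4 lower and 7 not passing of 16 (56.2% called). TUBB4B fell (-0.32 ± 0.03), TUBA1A was 1.48-fold higher and the abundant TUBB 1.10-fold lower, all uncertain because of close copies.

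Of nuclear-retained RNAs, NEAT1, which builds paraspeckles, went from 3071, 3289 and 3340 to 6663, 6642 and 6458 CPM (2.04-fold, log2 1.03 ± 0.03), and MALAT1, uncertain because RefSeq rows hold 0.2% of its counts, rose 1.32-fold. Of 17 such and host-gene RNAs 4 rose, 2 fell and 11 did not pass. So 35.3% were called, near the 36.6% of all genes, where 19.6% of long noncoding RNA genes were called. Epithelial genes gave 4 higher, 2 lower and 5 not passing of 11, with ESRP1, a splicing factor of epithelia, 3.94-fold higher, KRT8 1.22-fold higher, EPCAM lower (-0.42 ± 0.11) and CDH1 not passing (0.01 ± 0.20). EPCAM and KRT19 (-0.12 ± 0.05) were the 2 that fell, and neither was called without COM replicate 2. The junction protein TJP1 (1.12-fold higher) did not pass in limma on log2(FPKM + 1), at 0.12 (adjusted p = 0.096). Of 12 mesenchymal genes 8 rose, among them the fibronectin receptor chain ITGA5 (1.75-fold), 2 fell and 2 did not pass. HOXB13, the homeobox gene of prostate, went from 314, 299 and 302 to 196, 205 and 212 CPM (1.49-fold lower). Of 5 luminal genes tested, HOXB13 and FKBP5 (1.20-fold lower) fell, STEAP2 rose 1.253-fold and 2 did not pass. STEAP1 (-0.18 ± 0.08) passed only without DOC replicate 3 (-0.22, adjusted p = 0.0327) and with no filter. Of 3 neuroendocrine genes ENO2 (1.40-fold) and SYT1 (1.254-fold, not passing in limma fits on FPKM, adjusted p 0.0902 to 0.109) rose and SYP did not pass (0.50 ± 0.39). Of 7 fibroblast genes COL1A2 was 1.61-fold lower and the others, apart from FAP at about 1 CPM (-1.12 ± 0.41), did not pass. The FAP call was lost without DOC replicate 1 (-0.91, adjusted p = 0.112) and without COM replicate 1 (-0.71, adjusted p = 0.212).

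Whether DOC altered the response to silver was asked by setting COM minus DOC against AgNPs minus BLANK, which share no library. Most effects had the same direction: 96.3% of the genes called in COM against DOC had the same sign without DOC, and 4939 genes were called the same way in both, 67.5% of the calls with DOC and 79.9% of the 6180 calls without. Across 6813 well-expressed genes (average log2 CPM 5 or more), Pearson's r of the log2 changes was 0.95, and over all genes tested it was 0.664 (Spearman's rho 0.644), a description over genes that are not independent and were read in the same libraries. Of 421 genes at least 2-fold higher without DOC, 80.8% were called higher with it, with medians of 1.46 without and 1.44 with DOC. Of 57 genes at least 2-fold lower without DOC, 13 were called lower with it, with medians of -1.24 and -0.31. Both sets were picked by their change without DOC, which favours larger values there, so these values cannot show whether large falls were shared less. The 57 included genes of low level, such as BUB1B-PAK6 and DNAAF4-CCPG1 (average log2 CPM -0.46 and 0.58). Only 6 genes were called in opposite directions, NPRL3, TM4SF1, DANT1, GRAPL-AS1, SRP54-AS1 and CH507-145C22.1. DANT1, a noncoding RNA none of whose counts lie on RefSeq rows, rose with DOC (0.88 ± 0.14) and fell without it (-1.04 ± 0.18). TM4SF1, a membrane protein, changed by -0.10 ± 0.04 with DOC and 0.11 ± 0.04 without.

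**Figure D4:**
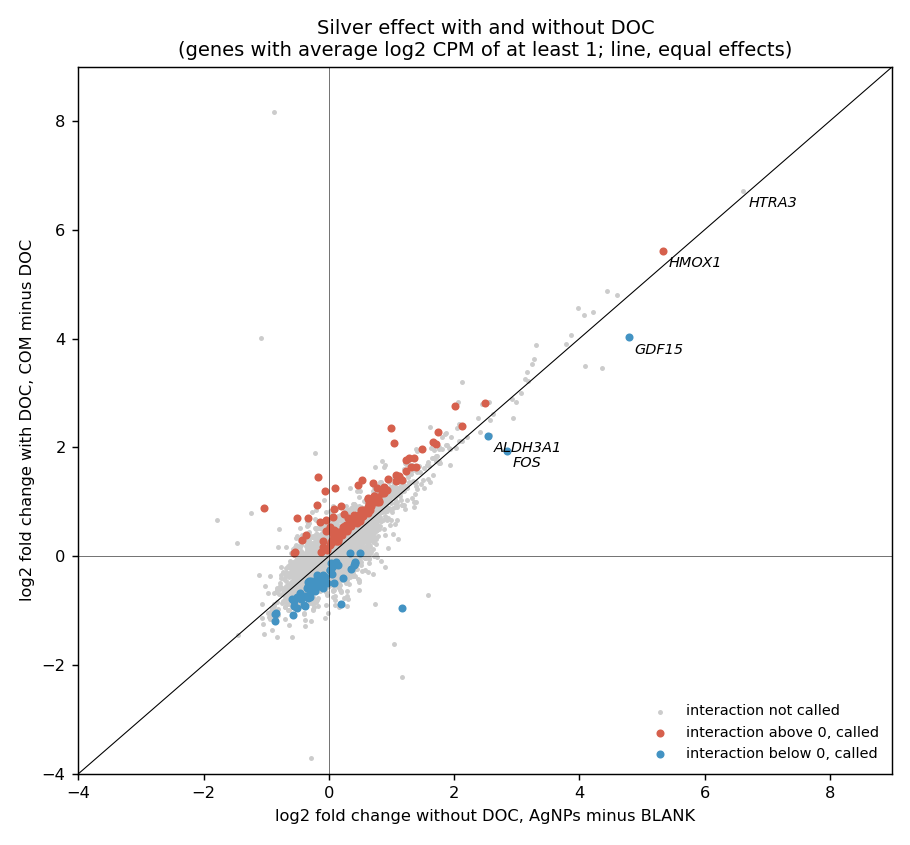
Log2 fold change of silver with DOC (COM minus DOC, vertical) against that without DOC (AgNPs minus BLANK, horizontal) for genes whose average log2 CPM was 1 or more. The line marks equal effects, and red and blue points are the genes called in the test of the difference. Most points follow the line, and GDF15, FOS and ALDH3A1 lie below it among the strong rises.

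The test of the difference itself called 221 of 19986 genes (1.11%), 146 with a difference above 0 (0.731%) and 75 below (0.375%). Silver had the larger effect in the presence of DOC in 203 of the 221 and the smaller in 18, where it was larger in 61.0% of all genes tested. Of the 146 above 0, 140 were rises in COM against DOC, and of the 75 below 0, 66 were falls. This count depended on single libraries, with 115 genes without AgNPs replicate 2, 163 without BLANK replicate 1, 119 without COM replicate 2 and 269 without DOC replicate 1, and with limma on log2(FPKM + 1) it was 56.

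Among the larger rises with DOC were genes of amino acid supply and the ATF4 pathway. ASNS rose by 1.57 ± 0.04 with DOC and 1.24 ± 0.04 without, a difference of 0.33 ± 0.05 (edgeR adjusted p = 0.000182). TRIB3 had a difference of 0.32 ± 0.06, STC2 of 0.36 ± 0.04, CEBPB of 0.44 ± 0.09, SLC3A2 of 0.25 ± 0.05, GARS1 of 0.23 ± 0.04 and WARS1 of 0.24 ± 0.04. Of the amino acid transporters 6 of 15 had a called difference and all 6 were above 0, as were 6 of 21 in the ATF4 list, 3 of 20 in amino acid synthesis and 4 of 20 tRNA synthetases. In limma on log2(FPKM + 1) these counts were 1, 2, 1 and 0. Called or not, the difference was above 0 in 14 of 15 transporters, 14 of 20 synthesis genes and 14 of 20 tRNA synthetases. In the ATF4 list it was above 0 in 12 of 21 and below 0 in 9, where it was above 0 in 48.6% of all genes tested. Of the 13 mTORC1 inhibitors 0 had a called difference. Single genes of protein quality control also had a larger rise: HERPUD1 had 0.47 ± 0.06 (edgeR adjusted p = 7.5e-06), DNAJB1 0.32 ± 0.04 and SQSTM1 0.26 ± 0.04. In their lists 4 of 30 heat shock, 2 of 24 endoplasmic reticulum, 2 of 27 autophagy and 0 of 33 proteasome genes had a called difference above 0. Over all genes tested the share above 0 was 0.731%. In limma on log2(FPKM + 1) these 4 list counts were 1, 1, 0 and 0. Differences above 0 were also called for GCLM (0.34 ± 0.06) and SRXN1 (0.42 ± 0.06) of the antioxidant genes, NEAT1 (0.24 ± 0.04), and EEIG1 (0.42 ± 0.07), a gene of osteoclast differentiation. SLC2A1 had a difference of 0.39 ± 0.06, its silver effect being 0.48 ± 0.04 with DOC and 0.09 ± 0.04 without. The differences of MT1X (0.19 ± 0.08), MT2A (0.11 ± 0.09), TXNRD1 (0.09 ± 0.04), NQO1 (0.10 ± 0.04) and GPX1 (0.01 ± 0.05) did not pass.

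A smaller rise with DOC was called for GDF15, ALDH3A1 and FOS. GDF15 had a difference of -0.77 ± 0.07 (edgeR adjusted p = 3.51e-08), with effects of 4.02 ± 0.04 with DOC and 4.79 ± 0.05 without, and its DOC libraries at 23.1, 25.8 and 25.6 CPM lay above the BLANK libraries, at 8.74 to 9.86 CPM. ALDH3A1 had a difference of -0.33 ± 0.04 (edgeR adjusted p = 4.51e-06). Its effects were 2.22 ± 0.03 with DOC and 2.54 ± 0.03 without. The FOS difference (-0.91 ± 0.23, edgeR adjusted p = 0.0394) was lost in each fit that left out a BLANK or AgNPs library, without DOC replicate 3 and without COM replicate 2 or 3 (adjusted p 0.0564 to 0.149).

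The fall of histone genes was larger in size with DOC. The difference was below 0 in 27 of 27 tested members, where it was below 0 in 51.4% of all genes, and 9 were called (2 to 16 over the alternative settings). The list's median change was -0.51 with DOC and -0.24 without. H2BC7 had a difference of -0.49 ± 0.08, H2BC8 of -0.36 ± 0.07, H2BC11 of -0.45 ± 0.08 and H2BC14 of -0.51 ± 0.09 (edgeR adjusted p = 0.00157). MIRLET7BHG, the host transcript of let-7 microRNAs, had -0.45 ± 0.05 and HOXB13 -0.25 ± 0.04. In the mitosis list 37 of 46 differences were below 0 and 3 were called, those of MKI67, CENPF and TOP2A (0 to 3 over the alternative settings). CENPF and TOP2A were each lost in 5 fits that left out a library, among them those without COM replicate 2 (adjusted p 0.102 and 0.0707), and MKI67 at thinned depth (0.0526).

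**Figure D5:**
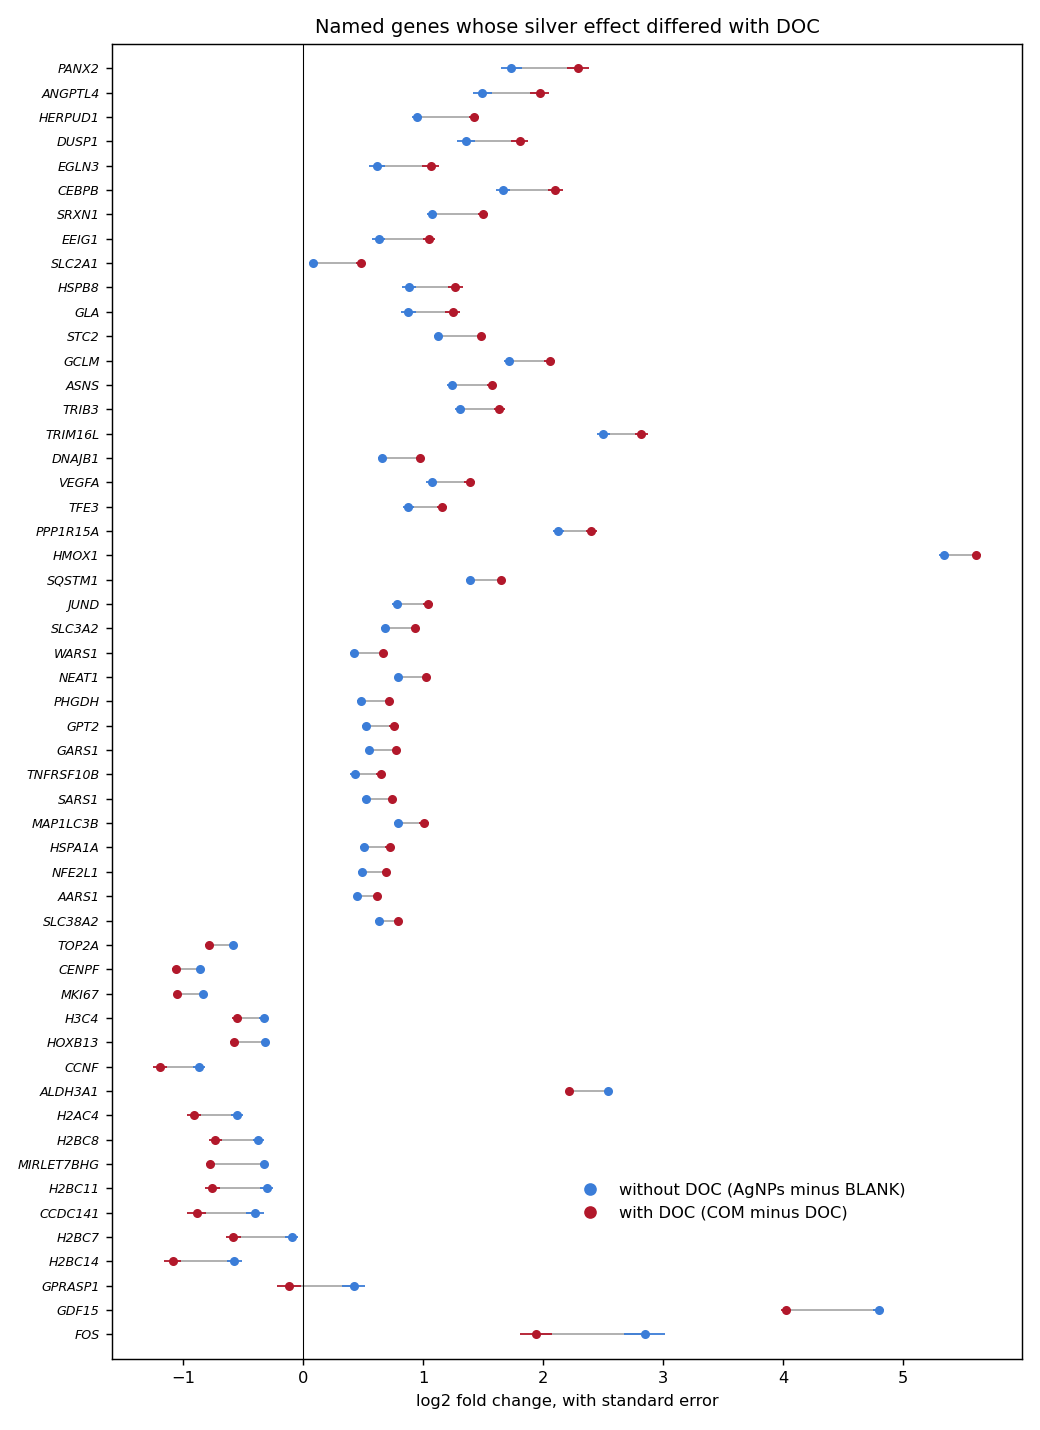
Log2 fold change of silver, with its standard error, without DOC and with DOC (in the colours of the legend) for the 53 named genes whose difference was called. The point with DOC lies to the right of the point without for 36 genes and to the left for 17, among them the histone genes, MKI67, GDF15 and FOS.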

How the data were processed

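RNA of wild-type PC3 cells was extracted with TRIzol and made into libraries with a BGI mRNA kit, per the labels' protocols. HISAT2, Bowtie2 2.2.5, RSEM and GRCh38 are named, without their roles, per the submitters' processing notes. The authors deposited 1 table with an expected count and an expression value per transcript and library. The header gives the expression value no unit, and the values fit FPKM, so they are called the authors' FPKM here. The deposited group-mean columns were not used. Of 221796 rows, the 44096 of circular RNAs were left out, and the expected counts of the 177700 linear rows were summed by gene and rounded.

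Genes were kept by edgeR's filterByExpr (minimum count 10) and tested in edgeR 4.0.16 (R 4.3.3) by the quasi-likelihood test after TMM normalization, in 1 model of all 12 libraries with a coefficient per group, with Benjamini-Hochberg adjustment over all 19986 genes. Printed errors of log2 changes are standard errors from that fit. The contrasts were COM minus DOC, AgNPs minus BLANK and their difference. The scripts were tested on simulated data. Alternatives used limma 3.58.1 on log2(FPKM + 1) or log2(FPKM + 0.1), DESeq2 1.42.0, other filters and scaling, RefSeq rows only, thinned counts, and each library left out.

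The members and gene lists were chosen with earlier results of these data known. Named by rule were the 12 largest fold changes each way with average log2 CPM of at least 1, a gene symbol, most counts on RefSeq rows and no overlap between groups, 8 each way for the difference, up to 4 genes of each list by adjusted p, and 32 genes set by hand. Other named genes were chosen after their values were seen. Some genes are not reported here. Same-numbered DOC and COM libraries did not deviate together (r 0.001 to 0.049), so numbers were not taken as pairs.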

Additional observations from a re-analysis of the deposited data

Results flagged for a closer look

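The silver effect with DOC differed from that without it, by the edgeR test of the difference (Benjamini-Hochberg adjusted over 19986 genes), in 53 named genes. Each is given on the log2 scale, where a value above 0 means a higher COM minus DOC than AgNPs minus BLANK. Of the 53, 14 passed in every alternative run. Those above 0 were HERPUD1 (0.47), SRXN1 (0.42), TRIB3 (0.32), STC2 (0.36), ASNS (0.33), DNAJB1 (0.32) and SLC2A1 (0.39). Those below 0 were GDF15 (-0.77), H2BC14 (-0.51), H2BC7 (-0.49), MIRLET7BHG (-0.45), ALDH3A1 (-0.33), H2BC8 (-0.36) and HOXB13 (-0.25).

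The other 39 failed the test in at least 1 alternative. Above 0 were the genes HMOX1 (0.27), PANX2 (0.55), ANGPTL4 (0.48), DUSP1 (0.45), EGLN3 (0.44), CEBPB (0.44), EEIG1 (0.42), GCLM (0.34), SLC3A2 (0.25), TRIM16L (0.32), NFE2L1 (0.20), PPP1R15A (0.28), VEGFA (0.32), PHGDH (0.23), GPT2 (0.23), SLC38A2 (0.16), GARS1 (0.23), WARS1 (0.24), SARS1 (0.21), AARS1 (0.16), HSPB8 (0.39), HSPA1A (0.21), SQSTM1 (0.26), MAP1LC3B (0.21), TFE3 (0.28), GLA (0.37), JUND (0.26), TNFRSF10B (0.22) and NEAT1 (0.24). Below 0 were the genes CCNF (-0.33), FOS (-0.91), GPRASP1 (-0.54), CCDC141 (-0.49), H2BC11 (-0.45), MKI67 (-0.21), CENPF (-0.21), TOP2A (-0.20), H2AC4 (-0.36) and H3C4 (-0.22). GPRASP1 was not called in COM against DOC (-0.12 ± 0.10) and rose without DOC (0.42 ± 0.09). Both HMOX1 and GDF15 rose with DOC and without it, with differences of opposite sign.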

How the results depend on the processing

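The count of genes changed in COM against DOC was 5927 (DESeq2) to 7348 over all alternatives and 6430 to 7348 with a library left out, and of AgNPs against BLANK 5183 to 6636 with a library left out. Genes at least 2-fold higher were 168 in limma on log2(FPKM + 1) and 149 with a mean FPKM of at least 1, and 538 to 626 with a library left out. Genes at least 2-fold lower were 56 in DESeq2, 148 with no filter, 9 in limma on log2(FPKM + 1) and 13 with a mean FPKM of at least 1, and 79 to 106 with a library left out. The difference of silver effects was less stable. Its count was 56, 53 and 60 in limma (pseudocounts 1 and 0.1, and a mean FPKM of at least 1), with 31, 28 and 31 above 0 and 25, 25 and 29 below 0. Below 0 it was also 44 in DESeq2, 142 with no filter, 48 on RefSeq rows only and 45 thinned. With a library left out it was 115 to 269 in all, 74 to 161 above 0 and 39 to 108 below 0. The cause was not tested. With the replicate block, 7198 genes were called in COM against DOC (7135 shared) and 176 for the difference (171 shared). Of 186 named genes, 177 kept their side of the threshold for COM against DOC in every alternative run and none changed direction. CD14, a receptor of monocytes, passed without DOC replicate 1 (1.22, adjusted p = 0.0425) and without COM replicate 2 (1.18, adjusted p = 0.0299). In COM libraries, the shallowest, 3 counts were up to 0.273 CPM, and of the 2395 genes with an average log2 CPM below 0, 9.9% were called in COM against DOC.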
